A study of Mus musculus with 2 samples.

Results

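The 8 genes described here are transporters and markers of astrocytes, chosen by symbol: Slc1a2, Slc1a3, Aqp4, Gfap, Slc4a4, S100b, Ntsr2 and Agt, 8 of the 40276 features counted in each section. They were followed in the 2 sections of the series, 1 normal mouse brain and 1 normal mouse heart, both formalin-fixed and paraffin-embedded (FFPE), and across the spots of the brain section. Each tissue gave 1 section of 5 µm and 1 library of total RNA, copied in place by random priming (spRandom-seq); the labels say of both that the reverse transcription primer lacked cell barcode 2, and no strain, age, sex or treatment of the animals is used here. Spots with at least 500 counts and 200 features were kept. With 1 library per tissue there is no replicate, so differences are given without a test; intervals are exact 95% intervals and cover counting error only.

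Astrocytes are the glial cells that clear glutamate and potassium around synapses, supply neurons with metabolites, and line blood vessels and the brain surface with their endfeet. The high-affinity transporters that Slc1a2 (GLT-1) and Slc1a3 (GLAST) encode carry most glutamate out of the extracellular space, the water channel of Aqp4 is concentrated in the endfeet, and Slc4a4 moves bicarbonate together with sodium. Gfap builds the intermediate filaments of astrocytes and is known to be scarce in many grey matter astrocytes and abundant in white matter and at the brain surface. S100b is a calcium-binding protein of astrocytes and of some oligodendrocytes, Ntsr2 a receptor for the peptide neurotensin, and Agt angiotensinogen, the precursor of the angiotensins. A spot is a small area that can hold several cells of different types, and fewer cells of a type and less RNA per cell cannot be told apart in these counts.

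The brain section had 4080 kept spots with 37143546 counts and a median of 5981 counts per spot, and the heart section 3726 kept spots with 44613867 counts and a median of 9049.5. The array's 4992 barcodes are the same in both libraries, and 3342 of them were kept in both. Ribosomal, mitochondrial and small structured RNA took 36.3% of the brain counts and 56.8% of the heart counts. The range of the ratios between the sections is therefore also given over the other RNA. The tissue labels were checked on marker lists: the 8 neuron genes summed to 3441 CPM in brain and 144 CPM in heart, and the 6 cardiomyocyte genes to 31.4 CPM in brain and 22504 CPM in heart. Olfactory and vomeronasal receptor genes, which neither tissue is known to use widely, gave 2.47 counts per kb of gene span in brain and 3.83 in heart over 1552 genes. This density serves as a rough measure of background. Whether a few of these genes give most of its counts was not tested. It is scaled by gene span, and whether reads in introns were counted is not given in the sources used here.

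All 8 genes were counted in both sections, and the CPM of each (its count scaled to all counts of the kept spots) was higher in brain. Together they made up 0.128% of the brain counts and 0.0124% of the heart counts. By the size rule used here, a ratio of at least 4-fold with at least 20 CPM in brain, 4 of the 8 were higher in brain, against 19.6% of the 5567 features that reached 20 CPM in brain. The median log2 ratio of the 8 was 2.88, against 0.87 for those 5567 features. The 2 sets are not alike, since the 5567 were picked by their level in brain and only 5 of the 8 genes reached it. Features that averaged 5 CPM or more had a median log2 ratio of 0.43 on this scale, and of -0.13 when ribosomal, mitochondrial and small structured RNA was left out of the totals. On that second scale the ratios of the 8 genes ran between 1.72-fold and 43.6-fold, still higher in brain for all 8.

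The glutamate transporter Slc1a2 had 881 CPM in the brain section (interval 871 to 890.4) and 13.7 CPM in the heart section (12.7 to 14.8), a ratio of 64.2 (59.3 to 69.7). Slc1a3 had 75.4 CPM in brain and 9.77 CPM in heart, a ratio of 7.71 (6.97 to 8.55). Slc1a2 thus had the higher level of the pair in brain, also per kb of exon, with 67.1 CPM per kb against 8.83 CPM per kb for Slc1a3. Per kb of gene span, Slc1a2 stood at 100.3 times the receptor density in brain and 1.21 times in heart. Slc1a3 stood at 14.8 times in brain and 1.48 times in heart, so that by span both were close to that density in heart. Whether reads in introns were counted is not given in the sources used here. If they were not, scaling by span lowers genes with long introns, and a level near background in heart does not follow. Of the 7 other transporter genes listed beside this pair, not all of them for glutamate, 3 passed the rule in brain and none in heart. These were Slc1a1, the transporter of neurons, with 68.0 CPM in brain and 10.4 CPM in heart (6.53-fold), and the vesicular transporters Slc17a7, with 107 CPM in brain and 5.07 CPM in heart (21.2-fold), and Slc17a6, with 61.0 CPM in brain and 4.77 CPM in heart (12.8-fold).

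The water channel Aqp4 had 28.3 CPM in brain and 3.81 CPM in heart, a ratio of 7.42 (6.30 to 8.78). Slc4a4 had 247 CPM in brain and 90.4 CPM in heart, a ratio of 2.73 (2.63 to 2.84), the highest heart level of the 8 genes and below the 4-fold rule. At 10.5 times the receptor density in brain and 2.98 times in heart, Slc4a4 was also the one of the 8 whose heart counts stood farthest above that background. Its gene spans 353 kb, the longest of the 8, and whether reads in introns were counted is not given in the sources used here. Among the 9 other bicarbonate and water transporters listed, Slc4a10 (337 CPM in brain and 38.4 CPM in heart, 8.76-fold) and Slc4a8 (63.4 CPM in brain and 8.23 CPM in heart, 7.70-fold) passed the rule in brain, both bicarbonate transporters of neurons. Aqp1, the water channel of the choroid plexus and of endothelium outside the brain, passed it in heart, with 1.62 CPM in brain and 42.3 CPM in heart.

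Of the marker proteins, Gfap had 25.3 CPM in brain and 1.86 CPM in heart, a ratio of 13.6 (10.8 to 17.2), the largest of the 8 after Slc1a2. S100b had 7.97 CPM in brain and 1.08 CPM in heart, a ratio of 7.41 (5.45 to 10.3) from 296 counts in brain and 48 in heart. S100b missed the rule for its level and not for its ratio. Among the 4 other intermediate filament genes listed none passed in brain and 2 passed in heart, these being Des, desmin of muscle, with 0.835 CPM in brain and 176 CPM in heart, and Vim, vimentin of mesenchymal cells, with 7.27 CPM in brain and 52.7 CPM in heart. Synm, synemin, which astrocytes and muscle both use, went the other way, with 23.6 CPM in brain and 8.27 CPM in heart (2.86-fold).

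Ntsr2 had 7.73 CPM in brain and 1.41 CPM in heart, a ratio of 5.47 (4.15 to 7.31). Agt had 4.90 CPM in brain and 1.93 CPM in heart, a ratio of 2.54 (1.96 to 3.32), the smallest ratio of the 8. Both fell under the 20 CPM of the rule. The 9 other renin-angiotensin genes listed split: Atp6ap2, the prorenin receptor, passed the rule in brain (75.1 CPM, against 8.09 CPM in heart, 9.28-fold), and Agtr1a, a receptor for angiotensin II, passed it in heart (3.12 CPM in brain and 32.5 CPM in heart). Ren1, renin, gave 14 counts in brain and 37 in heart, and the converting enzyme Ace had 7.38 CPM in brain and 10.5 CPM in heart.

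**Figure D1:**
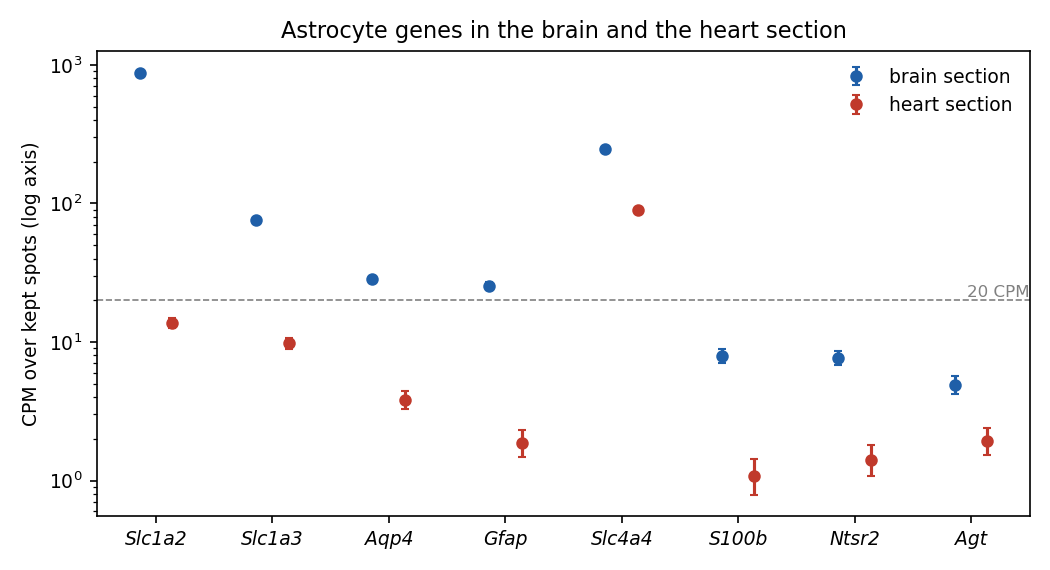
CPM of the 8 genes over kept spots of the brain section (blue) and the heart section (red), on a log axis, with exact 95% Poisson intervals and a dashed line at the 20 CPM of the size rule. Every gene stands higher in brain, Slc1a2 by 64.2-fold and Agt by 2.54-fold.

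The gene annotation held here places other genes on top of some of the 8. Gm37310 overlaps Slc1a3 on the same strand, and Gm13872, AC133525.2, Gm26668 and Dip2a overlap Slc1a2, Aqp4, Gfap and S100b on the other strand. Whether strand was used in counting is not given in the sources used here, so reads of such pairs cannot be told apart, while Slc4a4, Ntsr2 and Agt have no overlapping gene.

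A wider list of 42 other astrocyte genes was more mixed between the sections than the 8: 31 were higher in brain and 11 in heart. Of the 5567 features with at least 20 CPM in brain, 4606 were higher in brain. In the list 22 genes reached that level, and 9 of them passed the rule in brain, beside 19.6% of those features. The median log2 ratio of all 42 genes was 1.10, beside 0.87 for the 5567 features. The 42 genes were not picked by their level in brain, and those features were. Among its 12 genes with the highest level in brain were the potassium channel Kcnj10 (49.1 CPM in brain and 3.34 CPM in heart, 14.7-fold), the sodium pump subunit Atp1b2 (46.2 CPM in brain and 3.77 CPM in heart, 12.3-fold), Acsl6 (69.7 CPM in brain and 7.80 CPM in heart, 8.94-fold), Ttyh1 (86.3 CPM in brain and 9.91 CPM in heart, 8.71-fold) and the matrix protein Sparcl1 (243 CPM in brain and 48.4 CPM in heart, 5.01-fold). Others of the 12 did not reach 4-fold: Apoe, a lipid carrier, at 2.34-fold, Gpc5 at 1.94-fold and Glul, glutamine synthetase, at 1.88-fold. Prex2 and Plpp3 had ratios of 0.670 and 0.636. Against the list, 4 genes were at least 2-fold higher in heart at 20 CPM or more there: Ppp1r3c (0.341 for brain over heart), Mt1 (0.391), Ndrg2 (0.408) and Gja1 (0.427), the gap junction protein of astrocytes and of cardiomyocytes.

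For the brain section, spots were grouped on the expression of other genes: neither the 8 genes nor any of the 166 listed marker genes entered it, and so they can be described across it. Of 11 groups, called regions here, 9 held at least 50 spots and together 4017 spots; they are named by number and by the features with the largest fold over the other spots. Region 4 (Pdzrn3, Hs3st2) had 967 spots, region 3 (Pmch, Avp) 687, region 5 (Shox2, Prkcd) 651, region 1 (3300005D01Rik, Ddn) 633, region 6 (Ptgds, Thbd) 385, region 2 (Mobp, Ermn) 341, region 10 (Penk) 163, region 11 (4921539H07Rik, Neurod6) 130 and region 9 (Dsp, Maml2) 60. Summed marker lists set the regions apart. Myelin genes were 10.5-fold higher in region 2 than in its other spots, hypothalamus genes 4.94-fold in region 3, thalamus genes 4.84-fold in region 5, striatum genes 6.59-fold in region 10, hippocampus genes 4.77-fold in region 9 and 2.91-fold in region 11, and excitatory cortex and hippocampus genes 1.81-fold in region 4. In region 6 the meninges and matrix genes were 36.4-fold higher, at 1554 CPM in sum against 42.7 CPM in the other spots. Most of that sum was 1 gene, Ptgds, with 1063 CPM there, which also leads the region. It was the only 1 of the 8 genes of that list to reach 20 CPM in brain. Depth differed as well: the median spot had 1242 counts in region 1, 3132 in region 2 and 3160 in region 6, between 5430 and 9889 in regions 3, 4, 5 and 10, and 35549.5 and 46271 in regions 11 and 9.

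The 8 genes did not share one regional pattern. Of the 72 pairs of a gene and a region, 14 were at least 2-fold higher in the region than in the other spots with at least 30 counts there, 14 were at least 2-fold lower with at least 30 counts expected, and 44 were neither. The share of all features past the same rule gives the background of each count. Region 6 held 5 higher pairs (background 17%) and no lower one (8.06%), and region 11 held no higher pair (2.82%) and 5 lower ones (10.6%). Region 1 held 4 higher pairs (1.37%) and none lower (0.394%), region 2 held 2 higher (5.93%) and none lower (5.71%), and region 3 held 2 higher (3.22%) and none lower (3.95%). In region 9 there were 1 higher pair (8%) and 3 lower ones (7.11%). In region 4 none was higher (1.32%) and 4 were lower (3.74%), and in region 5 none was higher (3.96%) and 2 were lower (9.2%). Region 10 held neither kind, with backgrounds of 5.06% higher and 6.9% lower. Not every gene could pass everywhere, since between 3 and 8 of the 8 had enough counts in a region to be called higher, and between 3 and 8 to be called lower.

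**Figure D2:**
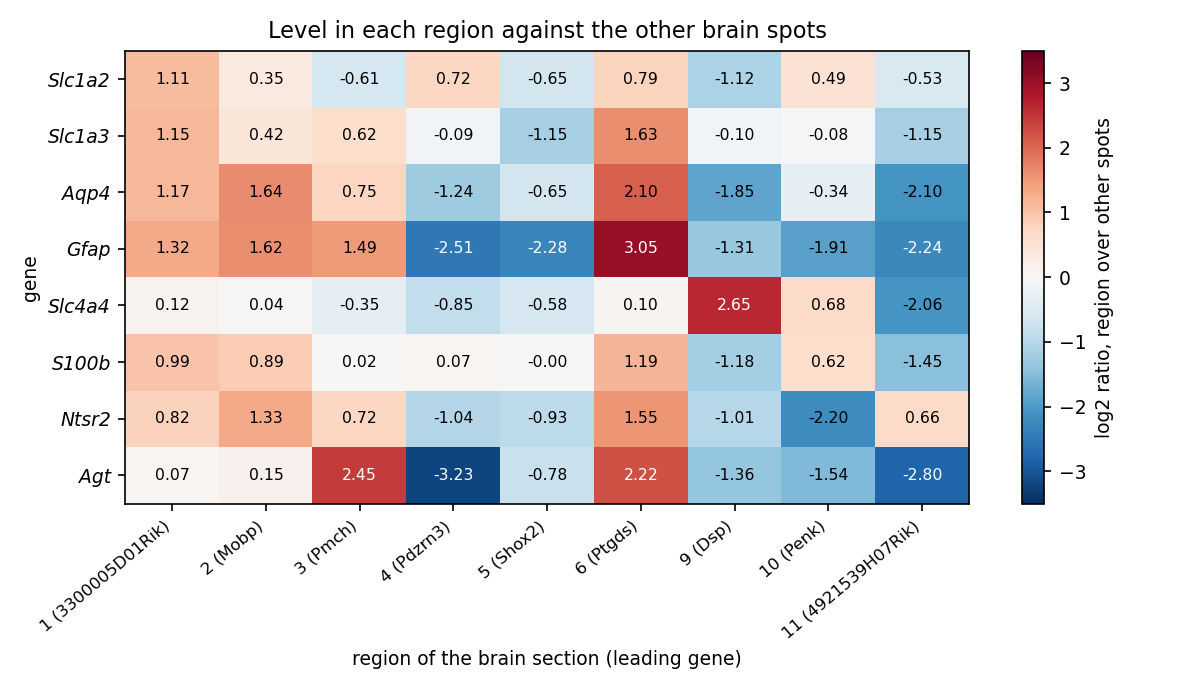
Log2 ratio of the CPM of each gene (rows) in each brain region over the other spots (columns, named by number and leading gene), red higher and blue lower. Gfap and Aqp4 lie on the same side of 0 in all 9 regions, Slc4a4 stands out at 2.65 in region 9, and Agt at 2.45 in region 3.

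Slc1a2 had a ratio of 4.33 (4.03 to 4.66) between its highest and its lowest region, the smallest estimate of the 8, though that of S100b, 5.40 (2.82 to 10.7), overlaps it. It had 1842 CPM in region 1, 1473 in region 6, 1225 in region 10, 1196 in region 4, 1108 in region 2, 637 in region 11, 604 in region 3, 590.5 in region 5 and 425 in region 9. A step of 1.74-fold lay between region 2, the fifth of these, and region 11. The excitatory cortex and hippocampus genes stood on both sides of it, with 1305 CPM in sum in region 4, 1428 in region 11 and 1396 in region 9. Gene by gene these regions were unlike. In region 4, 5 of the 6 genes were higher than in the other spots (median fold 2.14), and in region 9 only 2 (median fold 0.868). Regions 10 and 4 did not differ beyond their counting error, nor did regions 3 and 5. Against the other spots, Slc1a2 was 2.15-fold higher in region 1 (2.05 to 2.26) and lower in region 9, at a ratio of 0.462 (0.436 to 0.488). In the spots with at least 2800 counts, the quartiles of Slc1a2 were 931 and 1719 CPM in region 4 and 319 and 886 CPM in region 3.

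Slc1a3 was ordered otherwise. It had 213 CPM in region 6, 162 in region 1, 108 in region 3, 99.8 in region 2, 72.1 in region 4, 71.6 in region 10, 70.8 in region 9, 36.8 in region 5 and 36.6 in region 11. It was 3.09-fold higher in region 6 (2.75 to 3.45) and 2.22-fold in region 1 (1.88 to 2.61), and lower in regions 5 and 11, at ratios of 0.450 in each. Set directly against each other, region 3 and region 4 turned the order of the pair of transporters: Slc1a3 was 1.497-fold higher in region 3 than in region 4 (1.34 to 1.67), and Slc1a2 stood at a ratio of 0.505 (0.486 to 0.526).

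Aqp4 had 106 CPM in region 6, 81.4 in region 2, 61.6 in region 1, 43.5 in region 3, 22.4 in region 10, 18.9 in region 5, 14.7 in region 4, 8.35 in region 9 and 7.37 in region 11. It was 4.30-fold higher in region 6 than in the other spots (3.63 to 5.07), 3.12-fold in region 2 (2.56 to 3.78) and 2.25-fold in region 1 (1.71 to 2.92). It was lower in region 4 (ratio 0.422), region 9 (0.278) and region 11 (0.234). The water channel was thus called higher in the regions that led in meninges and in myelin genes and lower in both regions that led in hippocampus genes, where regions 9 and 11 did not differ beyond counting error (25 and 37 counts). The order did not follow myelin genes beyond that: they were 1.58-fold higher in region 10 and 1.31-fold in region 5, where Aqp4 had ratios of 0.788 and 0.636, and stood at 0.946 in region 3, where Aqp4 had 1.68.

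Gfap spread widely, with a ratio of 27.1 (18.6 to 40.7) between its highest and its lowest region, where Agt gave 26.5 (12.4 to 63.2). It had 159 CPM in region 6, 71.9 in region 2, 60.6 in region 1 and 57.2 in region 3, and these were followed, across a step of 5.36-fold (3.71 to 7.98), by 10.7 CPM in region 9, 6.90 in region 10, 6.09 in region 4, 5.97 in region 11 and 5.87 in region 5. The steps between neighbours among regions 2, 1 and 3 lay within counting error, as did those among the 5 low regions, though region 9 over region 11 gave 1.79 (1.05 to 3.05). Against the other spots Gfap was 8.30-fold higher in region 6 (7.17 to 9.60), 3.08-fold in region 2 (2.49 to 3.77), 2.81-fold in region 3 (2.43 to 3.23) and 2.49-fold in region 1 (1.88 to 3.24). It was lower in regions 4, 5, 9 and 11, at ratios of 0.176, 0.206, 0.402 and 0.211. In region 10 Gfap stood at a ratio of 0.267 (0.115 to 0.528), with 29.99 counts expected and so just short of the rule. Region 3 against region 4 gave 9.40-fold (7.25 to 12.3), the widest of the 8 genes after Agt. In region 6, 50.9% of the 214 spots with at least 2800 counts held a Gfap count, up to 19 in a spot, against 6.69% of the 957 such spots of region 4, where no spot had more than 2.

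Since the regions high in Gfap and Aqp4 include the shallow ones, the ratios were taken again over spots with at least 2800 counts. Region 6 then gave 10.4-fold for Gfap and 4.73-fold for Aqp4, region 2 gave 3.18-fold and 3.30-fold, and region 3 gave 3.10-fold for Gfap. With each spot of region 3 weighing the same, however, Gfap was 1.29-fold and no longer called higher. Region 1 had 71 such spots of its 633, and there the ratios were 0.785 for Gfap, 0.946 for Aqp4, 1.14 for Slc1a3 and 1.75 for Slc1a2, so that none of the 4 was called higher. With each spot weighing the same none of the 4 was called in region 1 either, at ratios between 1.59 and 1.86, and with 10 principal components Gfap (1.83) and Aqp4 (1.68) were not. In region 6 endothelial genes were 3.12-fold higher in sum (342 CPM, against 109 CPM in the other spots) and neuron genes lower (1546 CPM, against 3528 CPM in the other spots); 7 of the 8 genes of the meninges and matrix list were counted there, and the part of these other cell types in the levels of the 8 genes was not tested.

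Slc4a4 went its own way. It had 1086 CPM in region 9, 388 in region 10, 267 in region 1, 265 in region 6, 254 in region 2, 199.5 in region 3, 174 in region 5, 160.4 in region 4 and 65.9 in region 11. It was 6.26-fold higher in region 9 than in the other spots (5.995 to 6.53) and lower in region 11, at a ratio of 0.239 (0.214 to 0.267), although hippocampus genes were higher in both of these regions; set directly against each other the ratio was 16.5 (14.7 to 18.5). Ribosomal, mitochondrial and small structured RNA took 24.7% of the counts of region 9, against 35.9% to 39.9% in the other described regions. Over the other RNA, Slc4a4 was 5.21-fold higher in region 9, and Slc1a2, Aqp4 and Gfap stood at 0.384, 0.231 and 0.335. In the 60 spots of region 9 Slc4a4 had a median of 1060 CPM and quartiles of 901 and 1186. All 60 held Slc4a4 counts, but at their median depth of 46271 counts all 60 held Slc1a2 counts as well. In the same region Slc1a2, Aqp4 and Gfap were lower, the summed other astrocyte genes stood at a ratio of 0.668, and 14 of the 22 other astrocyte genes with at least 20 CPM were at least 2-fold lower there and 1 higher, against 7.45% lower and 6.79% higher of all features at 20 CPM. Features with a long gene span also leaned higher there: among 790 with at least 50 CPM and a span of at least 200 kb, the median fold in region 9 was 1.19 and 15.3% were at least 2-fold higher, against a median of 1.09 and 6.79% for all features at 20 CPM, and 6 of the 790 stood above Slc4a4. The part of gene span in the level of Slc4a4 was not tested. In the heart section Slc4a4 had 90.4 CPM, more than in region 11.

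**Figure D3:**
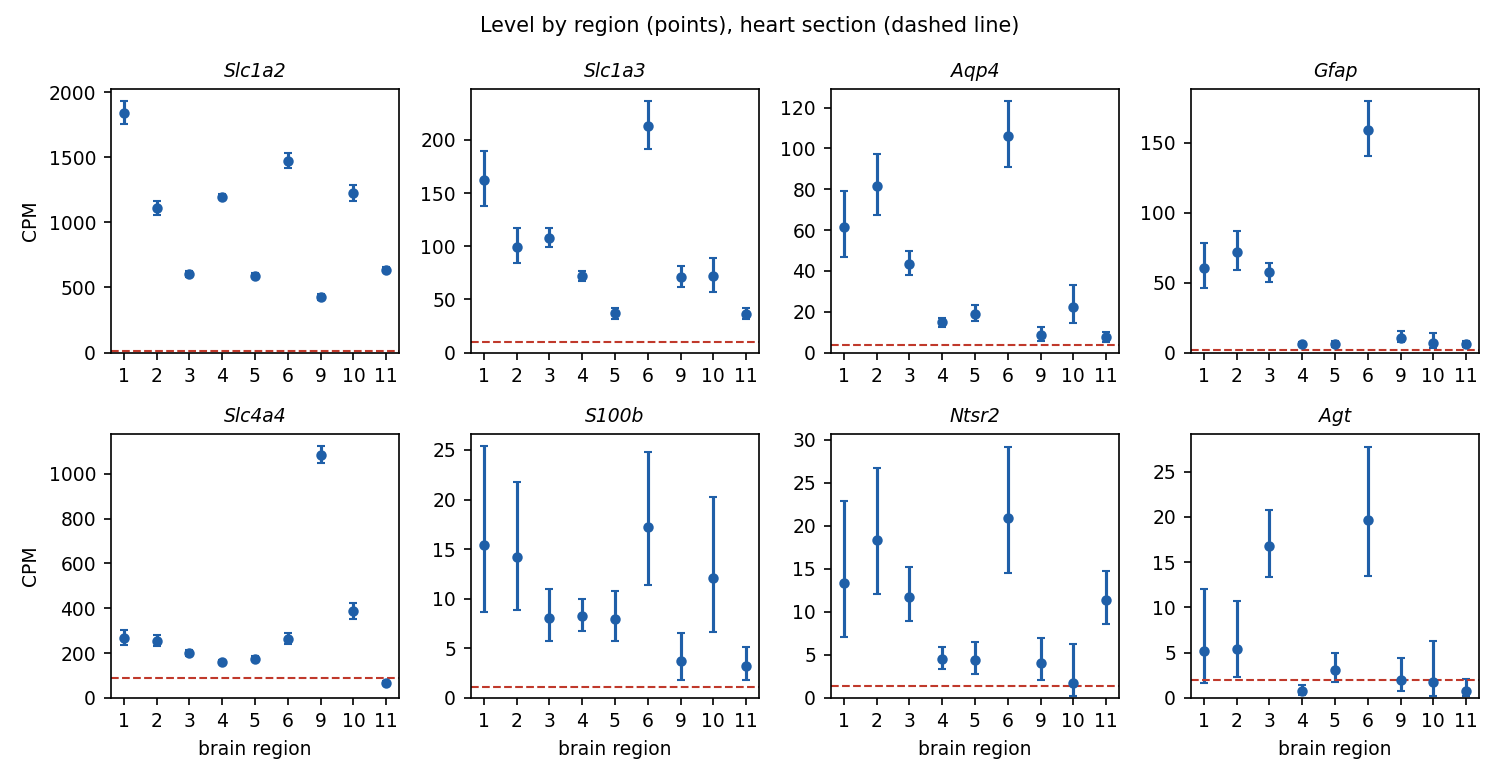
CPM of each gene by brain region (points, with exact 95% Poisson intervals) and in the heart section (dashed line), on linear axes that differ between panels. Slc4a4 peaks in region 9 at 1086 CPM and Gfap in region 6 at 159 CPM, and only Slc4a4 in region 11 and Agt in regions 4, 10 and 11 lie below the heart level.

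S100b was counted too rarely for most of these steps. It had between 3.19 CPM in region 11 and 17.2 CPM in region 6, a ratio of 5.40 (2.82 to 10.7), and 7 of the 8 steps between neighbouring regions lay within counting error. It was lower in region 11, at a ratio of 0.365 (0.206 to 0.604), and in region 6, with 28 counts, it was 2.28-fold higher (1.49 to 3.37) without reaching the 30 counts of the rule. Region 3, so far above regions 4 and 5 in Gfap, had 8.09 CPM of S100b, and regions 4 and 5 had 8.23 and 7.96 CPM. Region 3 over region 4 was 0.983 for S100b, with an interval of 0.664 to 1.43.

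Ntsr2, the neurotensin receptor, had 20.9 CPM in region 6, 18.3 in region 2, 13.3 in region 1, 11.7 in region 3, 11.3 in region 11, 4.52 in region 4, 4.36 in region 5, 4.01 in region 9 and 1.73 in region 10. It was 2.93-fold higher in region 6 (1.99 to 4.20) and lower in region 4, at a ratio of 0.487 (0.356 to 0.656). Region 11 stood out for this gene: there it was 1.59-fold higher than in the other spots (1.17 to 2.13), while the other 7 genes were lower in that region. Region 9 over region 11 gave 0.353 for Ntsr2 (0.172 to 0.665), the opposite direction to Slc4a4.

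Agt had 16.8 CPM in region 3 from 83 counts and 19.6 CPM in region 6 from 32 counts, and between 0.740 and 5.43 CPM in the other described regions. Regions 6 and 3 did not differ beyond counting error, and the step to the next region was 3.09-fold (1.498 to 7.40). Against the other spots Agt was 5.46-fold higher in region 3 (4.03 to 7.38) and 4.65-fold in region 6 (3.07 to 6.85), and in region 4 it was lower at a ratio of 0.107 (0.0481 to 0.208). Region 3, the one with the hypothalamus genes Pmch and Avp in the lead, thus held 83 of the 182 Agt counts of the section. There Agt stood at 20.3 times the receptor density, against 0.910 times in region 4 and 1.17 times in region 11, where its counts stood near that background. Region 3 over region 5 gave 5.53-fold (3.22 to 10.1). Of the other astrocyte genes at 20 CPM or more, 16 of the 22 were higher in region 3, with a median fold of 1.27. Among all 5567 features at 20 CPM in brain, 2753 were higher there, with a median fold of 0.996. Of the 22, 1 was at least 2-fold higher and 1 at least 2-fold lower, against 1.65% and 4.56% of all features.

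The promoters of the 2 genes with the widest range between regions are shown, since Gfap and Agt were both high in regions 3 and 6 and both low in region 4. They are the 250 bases before the RefSeq start on GRCm38.p6, an older build than that of the counts, both on the minus strand, and capitals mark matches to TATAAA, the TATA box, and to TTCNNNGAA, the palindrome that STAT factors bind, searched on both strands. Gfap lies at chr11:102897201-102897450 and Agt at chr8:124569707-124569956.
Gfap: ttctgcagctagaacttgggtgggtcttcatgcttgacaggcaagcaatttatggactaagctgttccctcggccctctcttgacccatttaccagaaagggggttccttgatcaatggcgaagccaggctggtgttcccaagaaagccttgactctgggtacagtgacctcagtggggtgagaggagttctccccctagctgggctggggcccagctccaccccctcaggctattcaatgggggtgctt
Agt: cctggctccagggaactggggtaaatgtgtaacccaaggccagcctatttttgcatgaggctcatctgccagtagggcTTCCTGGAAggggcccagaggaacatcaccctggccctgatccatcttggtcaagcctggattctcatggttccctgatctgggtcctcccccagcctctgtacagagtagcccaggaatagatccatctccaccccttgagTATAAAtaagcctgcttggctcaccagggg
The Agt window holds TATAAA 30 bases before the start and 1 match to TTCNNNGAA, 172 bases before it, and the Gfap window holds neither. Over the 7 of the 8 genes with an entry in the table, TATAAA was in 2 (Slc1a3 and Agt) and TTCNNNGAA in 3 (Slc1a3, Ntsr2 and Agt); none held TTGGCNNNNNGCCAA, the full site of NFI factors. Of all 32851 promoters of that length, 12.4% held TATAAA, 7.02% held TTCNNNGAA and 0.0365% held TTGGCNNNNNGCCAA, each motif counted on its own. A match is a description of letters and says nothing of binding.

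As shares of the summed counts of the 8 genes, which no scaling of a region can change, all 8 differed at least 2-fold between regions. Slc1a2 gave 82.9% of that sum in region 11 and 26.4% in region 9, where Slc4a4 gave 67.4%. Slc4a4 gave 8.58% in region 11. Gfap ranged between 6.99% in region 6 and 0.399% in region 10, Aqp4 between 4.93% in region 2 and 0.518% in region 9, and Slc1a3 between 10.3% in region 3 and 4.14% in region 10. The rarer genes ranged between 1.60% in region 3 and 0.0506% in region 4 for Agt, 1.48% in region 11 and 0.0998% in region 10 for Ntsr2, and 0.946% in region 5 and 0.228% in region 9 for S100b. Their low ends rest on 9, 2 and 11 counts. No background over other genes was taken for the 2-fold count. The shares also depend on each other: the 67.4% of Slc4a4 in region 9 lowers every other share there. A high share need not be a high level, since Slc1a2 in region 11 had a ratio of 0.694 over the other spots.

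**Figure D4:**
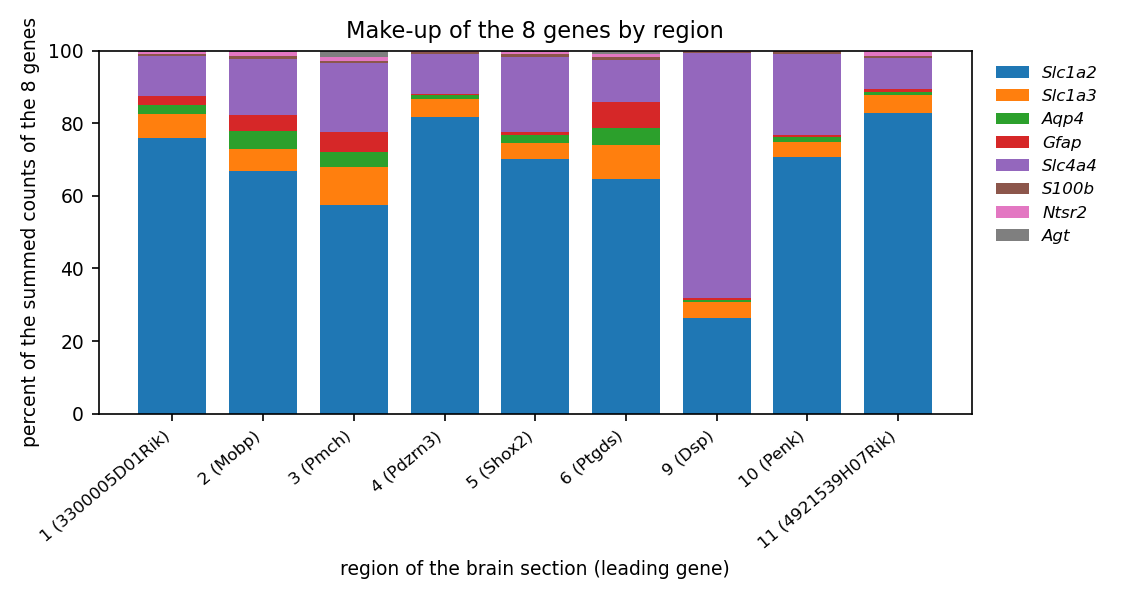
Share of each gene in the summed counts of the 8 genes, in percent, for each described brain region. Slc1a2 is the largest part in 8 of the 9 regions, and Slc4a4 with 67.4% in region 9.

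The 42 other astrocyte genes were highest in region 6 and lowest in the regions richest in hippocampus genes. Over the 22 of them with at least 20 CPM in brain, the median fold against the other spots was 1.93 in region 6, 1.78 in region 1, 1.65 in region 2, 1.27 in region 3, 1.05 in region 5, 0.863 in region 10, 0.828 in region 4, 0.457 in region 11 and 0.454 in region 9. In region 6, 10 of the 22 were at least 2-fold higher, against 6.31% of all features at 20 CPM, among them Apoe at 4.15-fold, Gja1 at 3.77-fold and Glul at 2.79-fold. In region 11, 12 of the 22 were at least 2-fold lower and none higher, against 9.61% lower and 3.23% higher of all features. Individual genes departed from that: Kcnj10 was 2.12-fold and Ndrg2 2.38-fold higher in region 5, where Gfap was low, and Prex2 was 2.39-fold higher in region 9.

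A second grouping that needs no clustering ranked the 3060 brain spots with at least 2800 counts by each marker list and set the 306 richest (the top 10%) against the other 2754. In the spots richest in other astrocyte genes, 6 of the 8 genes were at least 1.5-fold higher with at least 30 counts there, beside 20.7% of all features. S100b, with 29 counts, was 2.41-fold higher. Gfap was 11.8-fold higher (10.2 to 13.7), with 176 CPM in these spots and 14.9 CPM in the others, Aqp4 5.51-fold (4.68 to 6.46), Agt 4.52-fold (2.94 to 6.75), Slc1a3 3.21-fold (2.85 to 3.60) and Slc1a2 1.85-fold (1.78 to 1.93). Slc4a4 was 1.28-fold higher (1.17 to 1.40) and so below the rule. The spots richest in meninges and matrix genes gave 8.93-fold for Gfap, 4.63-fold for Agt and 4.58-fold for Aqp4, beside a background of 26.3%. In the spots richest in myelin genes Gfap was 3.54-fold and Aqp4 3.07-fold higher, beside 11.2%.

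In neuron-rich spots the 2 glutamate transporters leaned in opposite directions, both short of the 1.5-fold rule. In the 306 spots richest in neuron genes Slc1a2 was 1.32-fold higher (1.27 to 1.36) and Slc1a3 stood at a ratio of 0.704 (0.606 to 0.814). Gfap was lower there at 0.225 (0.139 to 0.347) and Agt at 0.152 from 3 counts (0.0310 to 0.452), beside 6.99% of features at least 1.5-fold lower. The spots richest in hypothalamus genes gave 5.82-fold for Agt (4.14 to 8.11) and 3.67-fold for Gfap (3.10 to 4.33), with 11.7% of features that much higher, and a ratio of 0.596 for Slc1a2 (0.564 to 0.628). The spots richest in thalamus genes held Gfap at 0.166 (0.0824 to 0.298), with 19.1% of features lower. Slc4a4 was 2.31-fold higher in the spots richest in hippocampus genes (2.21 to 2.41), beside 8.86%. That was not shared by all spots rich in hippocampus genes: region 9 alone held 3252 Slc4a4 counts, and region 11 had a ratio of 0.239. How many of the richest spots lie in region 9 was not counted.

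To compare single spots at 1 depth, each spot with at least 2800 counts was thinned to 2800, which left out 1020 of the brain spots and 787 of the heart spots as too shallow. Slc1a2 then had a count in 86.3% of brain spots (85.1 to 87.5) and in 3.91% of heart spots (3.24 to 4.68). Slc4a4 had one in 38.6% of brain spots and 20.7% of heart spots, and Slc1a3 in 19.4% of brain spots and 2.59% of heart spots. The heart shares are given for comparison and are not a pure background. Heart counts of all 8 genes stood above the receptor density, between 1.21 times for Slc1a2 and 2.98 times for Slc4a4. For Ntsr2 this was 2.40 times and for Aqp4 2.06 times. The other 5 genes had a count in fewer than 10% of the brain spots. These shares were 9.51% in brain and 0.851% in heart for Aqp4, and 6.63% in brain and 0.476% in heart for Gfap. They were 2.97% in brain and 0.238% in heart for S100b, 2.42% in brain and 0.408% in heart for Ntsr2, and 1.44% in brain and 0.340% in heart for Agt. Without thinning, the brain shares ran between 3.58% for Agt and 93.5% for Slc1a2. Across the thinned brain spots the variance of the counts was 2.10 times their mean for Slc1a2 and 1.78 times for Gfap, and 1.07 times for S100b, where a Poisson count would give 1.

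Pairs of genes shared spots weakly. Over the 28 pairs, Spearman's rho across the 3060 thinned spots, a description of 1 library with sparse counts, ran between -0.021 for Slc1a2 with Agt and 0.147 for Aqp4 with Gfap, and 3 pairs reached 0.1. Aqp4 and Gfap were counted together in 51 spots, against 19.3 from their separate shares. Slc1a2 and Slc4a4, the pair with the most counts, were counted together in 1016 spots, against 1020.5.

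For the 4 genes with at least 1000 counts, the features most like them across the 9 regions were looked up among 2654 with at least 50 CPM, by Pearson correlation of log2(CPM + 1), as a description over 9 points of 1 library. For Aqp4 these were Apoe (0.980), Crebrf (0.976) and Lrrc58 (0.960), and for Slc1a3 they were Stim1 (0.951), Sec24b (0.921) and Mecom (0.915). For Slc4a4 they were Pds5a (0.931), Tiam1 (0.910) and Rbm6 (0.907). For Slc1a2 they were Bach2 (0.895), Camk2n1 (0.883) and Ncan (0.880).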

How the data were processed

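The authors deposited, per section, a sparse matrix of counts (whole numbers) per feature and barcode. Per the submitters' processing notes reads were processed with STARsolo against build mm39; its version, whether molecular tags were merged, and whether intronic reads or strand were used are not given in the sources used here. From these counts, spots with at least 500 counts and 200 features were kept and summed, and CPM was taken over all their counts. CPM intervals are exact Poisson, shares exact binomial and ratios exact conditional binomial, at 95%; they take each count as an independent molecule. Gene span, exon length, biotype and overlaps came by gene ID from GENCODE mouse M21 on GRCm38, which held 35551 of the 40253 Ensembl IDs; promoters came from RefSeq.

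Brain spots were grouped with scanpy 1.11.5 and igraph 0.11.9 in Python 3.11.15: log depth-scaled counts of 2000 variable genes, 20 principal components, 15 neighbours, Leiden at resolution 0.6, without the 8 genes and the 166 genes of 19 lists. Groups under 50 spots were not described. No doublet caller was run on spots, and spot positions were not used here. Thinning used seed 1. The steps were tested on simulated data.

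The 8 genes and the lists were chosen with earlier results of these data known. Other genes were named by rule: the 12 other astrocyte genes with the highest CPM in brain, those at least 2-fold higher in heart at 20 CPM or more, the 3 features most like each gene with at least 1000 counts, and the 4 leading features of a region, of which at most 2 are printed; some genes that these rules name are not reported here.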

Additional observations from a re-analysis of the deposited data

Results flagged for a closer look

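Barcodes of the brain library below the spot threshold were not part of the comparisons. These 912 barcodes held 146 counts of Slc1a2, or 930.2 CPM, and 21 counts of Slc1a3, or 134 CPM, above the 25.8 CPM of each gene in the 1266 such barcodes of the heart library (4 counts each). Slc1a2 in kept spots had 881 CPM in brain and 13.7 CPM in heart. Region 8 (Gpr151, Chrna3), left undescribed for its 44 spots, had 94.1 CPM of Aqp4 from 95 counts, 3.56-fold the level of the other brain spots (2.85 to 4.40) and above the heart level of 3.81 CPM, beside a Slc1a2 ratio of 0.261 in the same spots. The cause of these values was not tested.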

How the results depend on the processing

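No paired analysis was possible because each tissue has 1 library and no replicate number. The number of the 8 genes that passed the 4-fold rule between brain and heart was 4 under 6 of the 7 alternatives and 6 with a floor of 5 CPM. The number with a region at least 2-fold higher or lower was 8, or 7 over spots of at least 2800 counts, an alternative added after seeing the data. The share of all features with any such region was not taken, so this number cannot be read as particular to the 8 genes. Pairs of genes with a rho of at least 0.1 numbered 3, but 0 after thinning to 1400 counts and 2 at 5600. Among single ratios 791 stayed within their counting error, 225 moved beyond it and 8 turned direction. Over spots of at least 2800 counts, Aqp4 (0.946) and Gfap (0.785) turned in region 1. With the richest 20% of spots in place of 10%, Aqp4 (1.07), Gfap (1.94) and Agt (1.13) turned for the hippocampus list, and Aqp4 (0.924), Gfap (0.795) and Agt (0.978) for the cardiomyocyte list; the cause was not tested. Some regional calls were lost: Agt and Ntsr2 in region 6 with 10 principal components and over deep spots, Ntsr2 in region 4 over deep spots (0.537), Aqp4 in region 4 at a Leiden resolution of 1.0 (0.596), and Gfap in region 3 with each spot weighing the same (1.29). In region 1 the higher calls of Slc1a2, Slc1a3, Aqp4 and Gfap were each lost under 2 or 3 of 8 alternatives, Slc1a2 also at a Leiden resolution of 0.3 (1.95), and Gfap ran between 0.785 and 6.88. Depth limits S100b, Ntsr2 and Agt, with between 182 and 296 counts in the brain section, and 1 section per tissue leaves variation between animals unmeasured.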
